A study of Mus musculus with 40 samples.

Results

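The clustered protocadherins were taken from the gene tables by symbol, as Pcdha, Pcdhac, Pcdhb, Pcdhga, Pcdhgb or Pcdhgc followed by a number. The rule gave 58 genes of the 40213 symbols listed. There were 14 genes of the alpha cluster, of which 12 were variable members and 2 were C-type members (Pcdhac1 and Pcdhac2). The beta cluster had 22 genes. The gamma cluster also had 22 genes, made up of 12 gamma A, 7 gamma B and 3 gamma C-type members (Pcdhgc3, Pcdhgc4 and Pcdhgc5). The symbols alone chose the members, so their levels and their differences between tissues and groups were not used in the choice.

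Clustered protocadherins are adhesion proteins of the cadherin family that sit in the membrane of neurons and bind copies of themselves on neighbouring cells. Each alpha and gamma variable exon has its own promoter and is spliced to constant exons that the whole cluster shares, whereas each beta gene is a single exon with no shared tail. A single neuron switches on a few variable members, chosen largely at random, while C-type members are used more widely. The resulting combination lets branches of a neuron recognise and avoid each other, and loss of the gamma cluster is known to kill spinal interneurons. Pcdhac2 is known for the spacing of serotonergic axons, Pcdhgc3 for dendrite branching, Pcdhgc4 for survival of interneurons, and Pcdhgc5 for binding GABA receptors.

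The mice were C57BL/6N males aged 8 weeks. RNA of the midbrain and of the spinal cord was sequenced in 5 groups, with 4 libraries per group and tissue and 40 libraries in all. Con received saline in place of MPTP, the toxin that injures dopaminergic neurons, and saline at the GB34 acupoint of the leg. MPTP-Veh received MPTP (20 mg/kg) and saline at GB34. MPTP-SU received MPTP and SUEHP, a herbal extract injected at GB34. MPTP-SU+S received MPTP, SUEHP and the CB1 antagonist SR141716A (3 mg/kg, spelled SR141714A in the labels), and one description of this group gives GB35 in place of GB34. MPTP-SU+T received MPTP, SUEHP and the PPARγ inhibitor T0070907 (5 mg/kg). Every SUEHP group also carried MPTP, so SUEHP without MPTP and the inhibitors without SUEHP were not among the groups. The labels do not tie libraries to animals, and p-values measure only the spread between these libraries.

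Libraries held 11958200 to 16639823 counts in the midbrain and 14642808 to 16615378 in the spinal cord. The members together held 4562 to 11105 counts of a midbrain library and 8287 to 11349 of a spinal cord library. All 8 Hox genes that mark the spinal cord were above 1 CPM (counts scaled to library size) on average there, with summed levels of 513 to 611 CPM, and none reached it in the midbrain. Markers of dopaminergic neurons summed to 122 to 388 CPM in the midbrain and to 16.6 to 22.0 CPM in the spinal cord. One midbrain library, replicate 4 of MPTP-Veh, stood apart. Its share of mitochondrial counts was 1.35%, against 9.92% to 17.5% in the other midbrain libraries, and its rank correlation with the median of the other midbrain libraries was 0.898, against at least 0.988. Its summed markers of oligodendrocytes were 35406 CPM, against at most 14371 CPM in the other midbrain libraries. Calls and counts that change without this library are given with and without it.

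The gamma cluster carried most of the protocadherin RNA in both tissues. In the midbrain the summed level of all members was 596 ± 48.7 CPM (SD, n = 20), of which the gamma cluster made up 64.9%, the alpha cluster 18.6% and the beta cluster 16.6%. In the spinal cord the sum was 632 ± 27.5 CPM (n = 20), with shares of 63.4%, 21.7% and 14.9%. The tissues differed more in how each cluster was composed than in these shares. The gamma C-type members made up 28.3% of member CPM in the midbrain, against 21.8% in the spinal cord, gamma A 25.1% and 27.5%, and gamma B 11.5% and 14.1%. The alpha C-type members made up 6.67% and 9.84%, and the alpha variable members 11.9% in both. These sums over members are descriptions, and no test was made on them. In whole tissue, fewer cells of a type and less RNA per cell cannot be told apart.

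By library, the alpha sum ran from 57.9 to 129 CPM in the midbrain, with a median of 113, and from 121 to 155 CPM in the spinal cord, with a median of 136. The beta sum ran from 47.7 to 122 CPM in the midbrain, with a median of 99.8, and from 80.9 to 105 CPM in the spinal cord, with a median of 96.0. The gamma sum ran from 320.5 to 445 CPM in the midbrain, with a median of 379, and from 356 to 455 CPM in the spinal cord, with a median of 399. The lowest midbrain value of all 3 sums was that of MPTP-Veh replicate 4, and without it the midbrain sums began at 95.5, 87.9 and 344 CPM. That library held 54.7% of the mean alpha sum and 51.8% of the mean beta sum of the other 3 MPTP-Veh libraries. Its gamma sum was 86.6% of theirs, and its gamma C-type sum was 103%. Its low sum lay in the alpha, beta and gamma A members and not in the gamma C-type members.

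**Figure D1:**
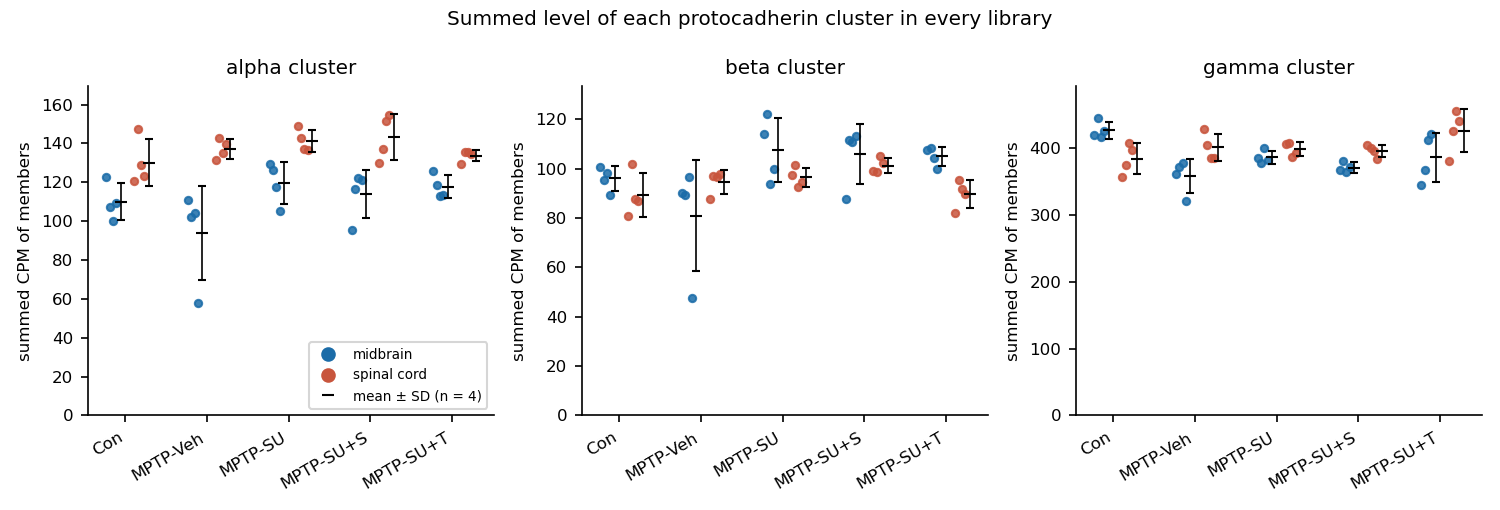
Summed CPM of the alpha, beta and gamma members (y axes, from 0) in each of the 40 libraries, by group (x axis), with midbrain in blue, spinal cord in red, and bars for mean ± SD of 4 libraries. MPTP-Veh replicate 4 is the lowest midbrain point in each panel, at 57.9, 47.7 and 320.5 CPM, and in the gamma panel the 4 midbrain Con libraries (416 to 445 CPM) lie above the 4 MPTP-Veh libraries (320.5 to 377 CPM).

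Single members were compared per kilobase of transcript, using lengths from GENCODE vM21, which held 57 of the 58 (not Pcdha10). Pcdhgc3 was by far the highest member, at 23.0 ± 2.07 CPM per kb for midbrain and 19.5 ± 1.72 for spinal cord (SD, n = 20). In the midbrain it was followed by Pcdhgc4 (6.63 ± 0.87), Pcdhac2 (6.25 ± 1.501) and Pcdhgc5 (5.62 ± 2.32), and these 3 did not differ beyond their spread. In the spinal cord Pcdhac2 (9.45 ± 0.92) came before Pcdhgc4 (5.42 ± 0.44), a gap above the spread, and Pcdhgc4 was level with Pcdhga11 (5.34 ± 0.49). The other C-type member, Pcdhac1, lay far down the order in the midbrain, at 0.624 CPM per kb, and at 1.22 CPM per kb in the spinal cord. Thus 4 of the 5 C-type members headed the midbrain list. In the spinal cord Pcdhga11, Pcdhgb6 and Pcdhga7 stood between Pcdhgc4 and Pcdhgc5.

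Among members that single neurons choose, gamma ranked above alpha and beta. The highest gamma A members were Pcdhga11 (4.13 and 5.34 CPM per kb in midbrain and spinal cord) and Pcdhga7 (3.74 and 4.30). The highest gamma B members were Pcdhgb6 (3.72 and 5.08) and Pcdhgb7 (2.62 and 3.86). The highest alpha variable member, Pcdha12, reached 1.74 and 2.02, and Pcdha4 reached 1.39 and 1.84. Among beta members Pcdhb17 (2.46 and 2.08) and Pcdhb22 (1.55 and 1.54) had the highest CPM, and Pcdhb20 was the highest per kb, at 2.84 and 2.69. The mean over members was 2.63 CPM per kb for gamma A, 1.14 for alpha variable and 1.09 for beta in the midbrain, and 3.05, 1.19 and 1.03 in the spinal cord. The lowest alpha member was Pcdha8, at 0.180 and 0.153 CPM per kb, and the lowest gamma member was Pcdhgb8, at 0.433 and 0.342. Pcdhb1 reached 0.0147 and 0.0149 CPM per kb, and was the 1 member too low to be tested. The order was nearly shared by both tissues, with a Spearman rho of 0.971 and a Pearson r of 0.979 on the log2 scale over 57 members, as a description of levels that share gene lengths and a pipeline. Only 3 of 56 neighbours in the midbrain order and 5 of 56 in the spinal cord order differed by more than the SD of the libraries, so most adjacent ranks were not resolved.

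**Figure D2:**
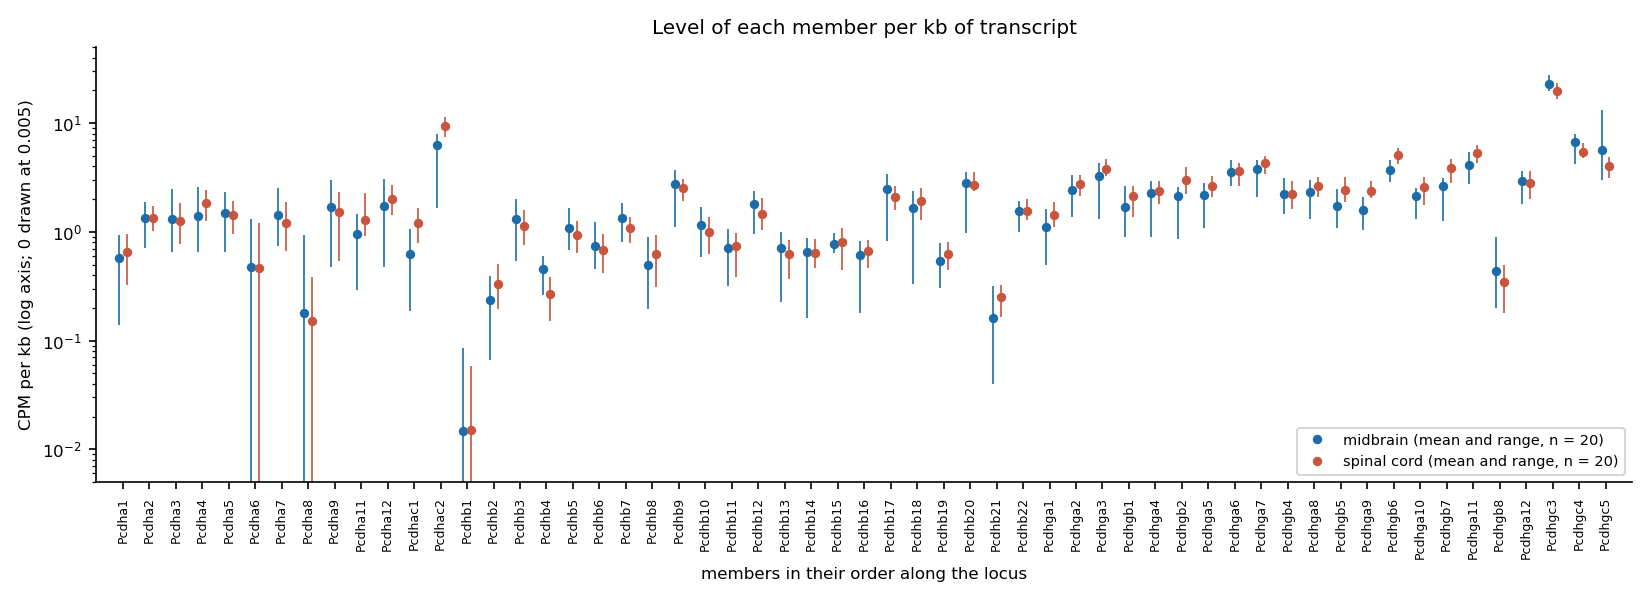
Mean CPM per kb of transcript (points) and range over 20 libraries (lines) of 57 members on a log y axis, with members on the x axis in their order along the locus, midbrain in blue and spinal cord in red. Pcdhgc3 stands highest at 23.0 and 19.5 CPM per kb, Pcdhb1 lowest at 0.0147 and 0.0149, and the lines of Pcdha6 and Pcdha8 reach the axis because a library held 0 counts.

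Alpha variable members had the highest median spread between libraries of the same group. Their median coefficient of variation within groups reached 36.1% in midbrain libraries and 26.7% in spinal cord libraries, where counting alone would give 9.60% and 9.64%. For beta members it was 21.7% and 17.2%, against 13.5% and 13.7% from counting. For gamma A members it was 16.7% and 11.2%. Pcdha6 ranged from 0 to 6.997 CPM in the midbrain and from 0 to 6.49 CPM in the spinal cord, and Pcdha8 from 0 to 5.01 and from 0 to 2.05 CPM. The sum of the alpha variable members had a coefficient of variation of 13.8% in the midbrain (11.5% without MPTP-Veh replicate 4) and 7.82% in the spinal cord. A sum of many members is steadier than its members even when they vary independently. Its SD was 9.75 CPM in the midbrain and 5.86 CPM in the spinal cord, where independent members would give 7.93 and 5.71 CPM. The sum was thus no steadier than that. Alpha and gamma members share their constant exons. Between 61.5% and 70.2% of the 31-base words of an alpha variable transcript occurred in another member, 41.7% to 67.8% for gamma A and 0% to 22.5% for beta, so the split of reads among alpha or among gamma members is less certain than their sum. The part of this sharing in the spread was not tested.

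Which members differed between the midbrain and the spinal cord was tested across all 40 libraries, with equal weight for each group. In the midbrain Pcdhac1 and Pcdhac2, the alpha C-type members, were lower, Pcdhb21 was lower and Pcdhb4 was higher. A gene was called when its Benjamini-Hochberg adjusted p from edgeR's quasi-likelihood test was below 0.05 and its fold change above 1.5. Thus 4 of the 57 members tested were called, 1 higher and 3 lower, where 22% of all 17426 genes tested were called, 9.8% higher and 12.2% lower. The members' share was below that background, and the difference in share was not tested.

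Pcdhac1 ran from 1.02 to 5.72 CPM in the midbrain (median 3.29) and from 4.25 to 8.95 CPM in the spinal cord (median 6.999). Its log2 fold change was -1.03 (SE 0.11, edgeR adjusted p = 5.75e-10), the largest of the members in size. The ranges overlapped between 4.25 and 5.72 CPM, where the midbrain libraries were the 4 of MPTP-SU and 1 of MPTP-SU+S. Pcdhac2 ran from 9.81 to 46.6 CPM (median 38.6) against 43.9 to 67.3 CPM (median 56.3), a difference of -0.61 on that scale (SE 0.09, adjusted p = 4.21e-07). Pcdhac2 was near the threshold: it was -0.56 without MPTP-Veh replicate 4, -0.42 in the 8 Con libraries alone and -0.32 once GC and length trends were removed, all below 1.5-fold. Pcdhb4 ran from 0.984 to 2.24 CPM against 0.564 to 1.44 CPM, and was higher by 0.73 on the log2 scale (SE 0.12, adjusted p = 1.45e-06), but in the 8 Con libraries alone it did not pass (0.58, adjusted p = 0.127). Pcdhb21 ran from 0.187 to 1.49 CPM against 0.779 to 1.53 CPM, and its difference was -0.65 (SE 0.15, adjusted p = 0.000245). Both are among the least abundant beta members, and Pcdhb21 fell to -0.53 with those trends removed. The first member outside the threshold was Pcdhga9, at -0.58 (adjusted p = 1.07e-09).

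Smaller differences ran by subfamily. With the adjusted p alone, 32 of 57 members passed, 11 higher and 21 lower in the midbrain, where 66.2% of all genes passed. The 3 gamma C-type members were all higher in the midbrain, with log2 fold changes of 0.23 for Pcdhgc3, 0.29 for Pcdhgc4 and 0.42 for Pcdhgc5. By contrast 9 of 12 gamma A members passed and all 9 were lower, among them Pcdhga11 (-0.37) and Pcdhga7 (-0.21). Of 7 gamma B members 5 were lower, among them Pcdhgb6 (-0.45) and Pcdhgb7 (-0.56), and 1 was higher (Pcdhgb8, 0.34). The gamma cluster was thus split, with its C-type members on one side and most variable members on the other. Beta members had 7 higher and 3 lower. Of 12 alpha variable members 2 passed, Pcdha4 (-0.43) and Pcdha11 (-0.44), both lower.

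The median log2 fold changes were -0.22 for gamma A, -0.45 for gamma B, 0.29 for gamma C-type, 0.07 for beta and -0.02 for alpha variable, beside 0.02 for all genes. With GC and length trends removed they were -0.07 for gamma A, -0.33 for gamma B and 0.45 for gamma C-type, beside 0.06 for all genes, so the gamma split kept its direction while gamma A came close to the median gene. The alpha variable median turned from -0.02 to 0.26. At an unadjusted p below 0.05 the balance over all members turned from 11 higher and 22 lower to 21 higher and 13 lower. Gamma A had 2 higher and 3 lower in place of 9 lower, so these directions depended on the trend. Of all genes 68.8% passed in the main fit, a larger share than of the members. The share of all genes after trend removal is not given here. The tissue difference of Pcdhgc5 was 1.30 in the 8 Con libraries alone, against 0.42 in all 40. Over the alternatives other than single-library removals, Pcdhgc5 ranged from 0.36 to 1.30 and Pcdhgc3 from 0.20 to 0.36. Both passed the adjusted p in each. Pcdhgc4 ranged from 0.15 to 0.45 and did not pass in all of them, so its part in the gamma split was less certain. Summed markers of neurons were 5213 to 6810 CPM in the midbrain and 7854 to 8708 CPM in the spinal cord, and those of astrocytes 3285 to 3823 and 5367 to 6685 CPM. Markers of serotonergic neurons summed to 3.11 to 146 CPM in the midbrain and 0.558 to 2.16 CPM in the spinal cord. The part of these cell types in the protocadherin differences was not tested.

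**Figure D3:**
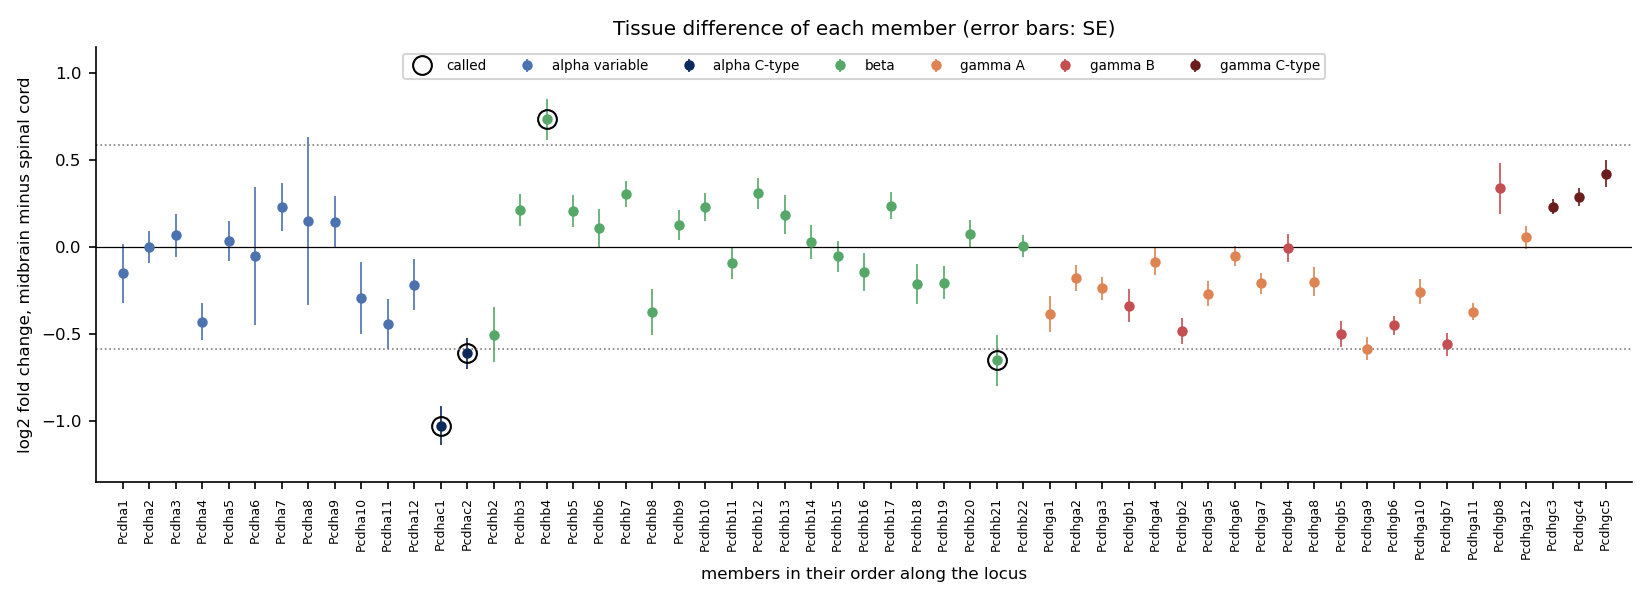
Log2 fold change of each of 57 members, midbrain minus spinal cord, with its SE (y axis), in order along the locus (x axis), coloured by subfamily, where dotted lines mark 1.5-fold and rings the 4 called members. The 3 gamma C-type members at the right lie above 0 (0.23 to 0.42), while most gamma A and gamma B members lie below 0.

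The effect of MPTP was examined by comparing MPTP-Veh with Con. In the midbrain no member was called by edgeR, where 0.018% of the 16629 genes tested were. At an unadjusted p below 0.05, 8 members were lower and none higher, where 23.7% of all genes passed in either direction. DESeq2 and limma with sample weights each called 1 member, Pcdhgc5. Members lay below 0 in 47 of 57 cases, where 50% of all genes lay above 0, and the median log2 fold change was -0.28, beside 0.00 for all genes. Without MPTP-Veh replicate 4, 42 of 57 lay below 0 and the median was -0.14. With GC and length trends removed it was -0.16, beside 0.03 for all genes.

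All 12 gamma A members lay below 0 with and without that library, with medians of -0.40 and -0.23. The alpha median moved from -0.20 to 0.00 without it and the beta median from -0.25 to -0.11. The gamma sum was 426 CPM or less in 3 Con libraries (420, 416 and 426) and 445 CPM in Con replicate 2, and it was 362, 371, 377 and 320.5 CPM in MPTP-Veh. All 4 MPTP-Veh libraries lay below all 4 Con libraries, with means of 427 ± 13.0 and 358 ± 25.6 CPM (SD, n = 4), or 370.0 ± 7.80 CPM without replicate 4. The 4 MPTP-SU libraries (377.4 to 400.2 CPM, mean 386 ± 9.88) lay above the 4 MPTP-Veh libraries, the highest of which was 377.3 CPM, and below all Con libraries. MPTP-SU+S (364 to 381 CPM) and MPTP-SU+T (344 to 422 CPM) overlapped MPTP-Veh. Only 1 library of these 3 groups, in MPTP-SU+T, exceeded the lowest Con library.

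Pcdhgc5 had the smallest p of the members. It was 41.7, 61.9, 32.0 and 39.3 CPM in Con and 25.4, 22.9, 27.2 and 24.4 CPM in MPTP-Veh, so the groups did not overlap. Its log2 fold change was -0.80 (SE 0.21, edgeR adjusted p = 0.13), and an exact two-sided permutation test of the 8 libraries gave p = 0.0286, the smallest that 4 against 4 can give. That value follows from the missing overlap alone. Groups did not overlap for 7 members, 6 lower and 1 higher, and for 12.4% of all genes, 6.08% lower and 6.3% higher. Pcdhgc5 passed without MPTP-Veh replicate 3 (adjusted p = 0.0453) and in DESeq2 (-0.79, adjusted p = 0.0277). It was also low in MPTP-SU (18.7, 24.0, 21.2 and 18.1 CPM) and MPTP-SU+S (20.0, 17.7, 18.6 and 22.9 CPM), and uneven in MPTP-SU+T (14.3, 21.0, 27.2 and 33.8 CPM). Choroid plexus markers reached 1235 CPM in a Con library, against at most 21.3 CPM in MPTP-Veh. Their part in the Pcdhgc5 difference was not tested.

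Pcdhb11 had the next smallest p. It was 3.51, 2.40, 2.92 and 2.51 CPM in Con and 1.56, 2.17, 1.93 and 1.40 CPM in MPTP-Veh, again without overlap, with a log2 fold change of -0.67 (SE 0.20, edgeR adjusted p = 0.13). Pcdhac2 was 46.6, 41.2, 35.3 and 32.7 CPM in Con and 37.4, 22.6, 37.9 and 9.81 CPM in MPTP-Veh. These overlapped, and the log2 fold change of -0.52 (adjusted p = 0.24) became -0.25 without replicate 4. Pcdhgc3 (-0.11) and Pcdhgc4 (0.25) did not pass.

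The effect of SUEHP was examined by comparing MPTP-SU with MPTP-Veh in the midbrain. Pcdhb11 and Pcdhac1 rose, and no member fell. These were 2 of 57 members, both higher, where 4.35% of all genes were called higher and 9.1% lower. The adjusted p alone added only Pcdhga6 (0.45, adjusted p = 0.0263) and Pcdhb7 (0.57, adjusted p = 0.0331). By it 4 of 57 members passed, where 20.1% of all genes passed in either direction. Most other members leaned the same way without passing.

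Pcdhb11 was 1.56, 2.17, 1.93 and 1.40 CPM in MPTP-Veh and 4.37, 4.73, 3.27 and 3.68 CPM in MPTP-SU. Every MPTP-SU library lay above every MPTP-Veh library, and the log2 fold change was 1.16 (SE 0.20, edgeR adjusted p = 0.00315). Con, at 2.40 to 3.51 CPM, lay above MPTP-Veh and overlapped MPTP-SU. Pcdhb11 stayed at 3.08 to 3.98 CPM in MPTP-SU+S and at 3.20 to 4.40 CPM in MPTP-SU+T. The comparisons with Con and with MPTP-SU share the same MPTP-Veh libraries.

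Pcdhac1 was 1.71, 2.30, 3.69 and 2.15 CPM in MPTP-Veh and 5.72, 5.48, 5.43 and 4.34 CPM in MPTP-SU, without overlap. Its log2 fold change was 1.07 (SE 0.27, edgeR adjusted p = 0.0162). Here Con, at 1.02, 2.40, 2.79 and 1.84 CPM, lay with MPTP-Veh, so MPTP-SU stood above both. Pcdhac1 was 3.08, 3.14, 5.04 and 3.98 CPM in MPTP-SU+S and 2.76, 3.43, 3.93 and 3.43 CPM in MPTP-SU+T. Both groups overlapped MPTP-Veh, and MPTP-SU+S also overlapped MPTP-SU. The exact permutation test gave p = 0.0286 for each of these genes, the smallest possible. Any groups of 4 without overlap give that value, so it adds nothing to the missing overlap. Without MPTP-Veh replicate 4 the log2 fold changes were 1.08 for Pcdhb11 (adjusted p = 0.00216) and 1.02 for Pcdhac1 (adjusted p = 0.0221). Without that library only 1.31% of all genes were called higher and 2.09% lower. With the 8 libraries of the comparison fitted alone, neither passed (adjusted p = 0.223 for both). The number called was 5 without MPTP-Veh replicate 1, 6 without replicate 2, 6 without replicate 3 and 4 without MPTP-SU replicate 4, and Pcdhb11 and Pcdhac1 were among them each time. The share of all genes called in these refits is not given here, so the counts do not show a gain particular to the members.

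**Figure D4:**
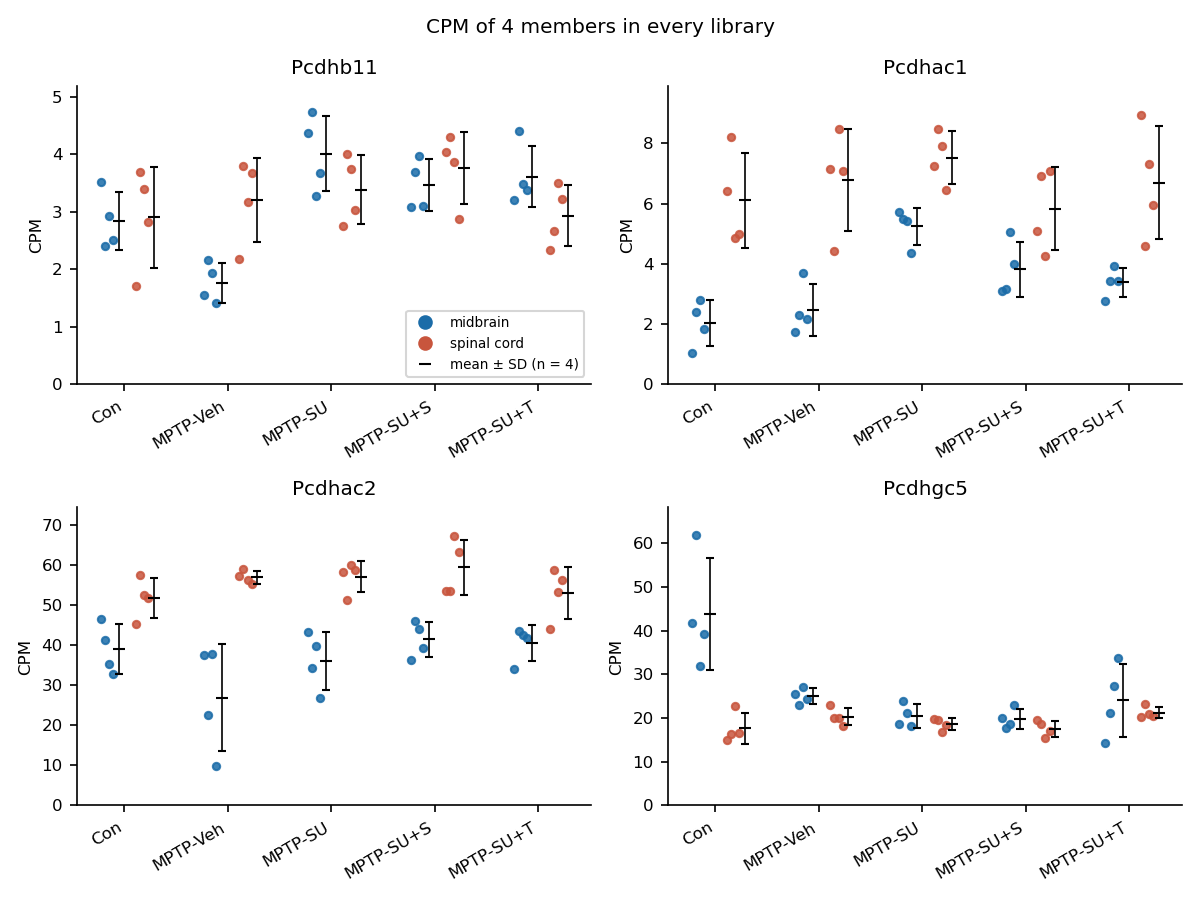
CPM (y axes, from 0) of Pcdhb11, Pcdhac1, Pcdhac2 and Pcdhgc5 in each of the 40 libraries, by group (x axis), midbrain in blue and spinal cord in red, with bars for mean ± SD of 4 libraries. In the midbrain Pcdhb11 and Pcdhac1 are higher in MPTP-SU (3.27 to 4.73 and 4.34 to 5.72 CPM) than in MPTP-Veh (1.40 to 2.17 and 1.71 to 3.69 CPM), and Pcdhgc5 is highest in Con (32.0 to 61.9 CPM).

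The lean of the members toward MPTP-SU was strongest in the beta cluster. Of 57 members 47 had a log2 fold change above 0, where 50% of all genes had one, and 14 were higher and none lower at an unadjusted p below 0.05, where 39.8% of all genes passed in either direction. Of the 14, 10 were beta members. Groups did not overlap for 6 members, all higher, where 10.7% of all genes were higher without overlap. Neither the 6 nor the 14 exceeded the share of all genes, so these counts do not set the members apart. Besides the called members, those without overlap were Pcdhb4, Pcdhb7, Pcdhb10 and Pcdhgb5. Medians were 0.52 for beta, 0.36 for alpha and 0.20 for gamma, beside 0.00 for all genes, and the gamma C-type members stayed near 0 with a median of -0.02. Without MPTP-Veh replicate 4, 45 of 57 members lay above 0, of which 43 did so with it, and the medians fell to 0.35, 0.19 and 0.09, and 7 members were higher and 2 lower at an unadjusted p below 0.05, where 28.8% of all genes passed. With GC and length trends removed the medians were 0.37 for beta, 0.14 for alpha and 0.23 for gamma. At the same unadjusted p 9 members were then higher and 1 lower, and the share of all genes in that setting is not given here. Beta sums were 90.3, 89.4, 96.6 and 47.7 CPM in MPTP-Veh and 114, 122, 93.8 and 99.8 CPM in MPTP-SU. These overlapped through the third library of each group. Pcdhac2 (0.41) and Pcdhgc5 (-0.29) did not pass, and Pcdhgc3 (0.03) and Pcdhgc4 (-0.02) changed sign between settings.

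Markers of position within the midbrain also differed between these groups. Their 5 genes, which include En1 and Pax5, summed to 53.7 to 100.1 CPM in MPTP-Veh and 29.6 to 39.8 CPM in MPTP-SU, without overlap, and all 5 were lower in MPTP-SU, 3 of them called. Without MPTP-Veh replicate 4 the highest MPTP-Veh sum was 62.6 CPM, and 2 were called. Of all genes 9.1% were called lower with that library and 2.09% without it. The 4 markers of serotonergic neurons, the cells that Pcdhac2 is known for, summed to 24.0 to 146 CPM in MPTP-Veh and 9.26 to 58.7 CPM in MPTP-SU, with all 4 lower and 1 called. Without replicate 4 the highest MPTP-Veh sum was 81.0 CPM and none was called (adjusted p = 0.0931 for Fev, the gene called with it). None of these genes was at 0 throughout a group. In Con the position markers summed to 28.7 to 61.8 CPM and the serotonergic markers to 3.11 to 33.6 CPM. The part of these markers in the protocadherin differences was not tested.

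**Figure D5:**
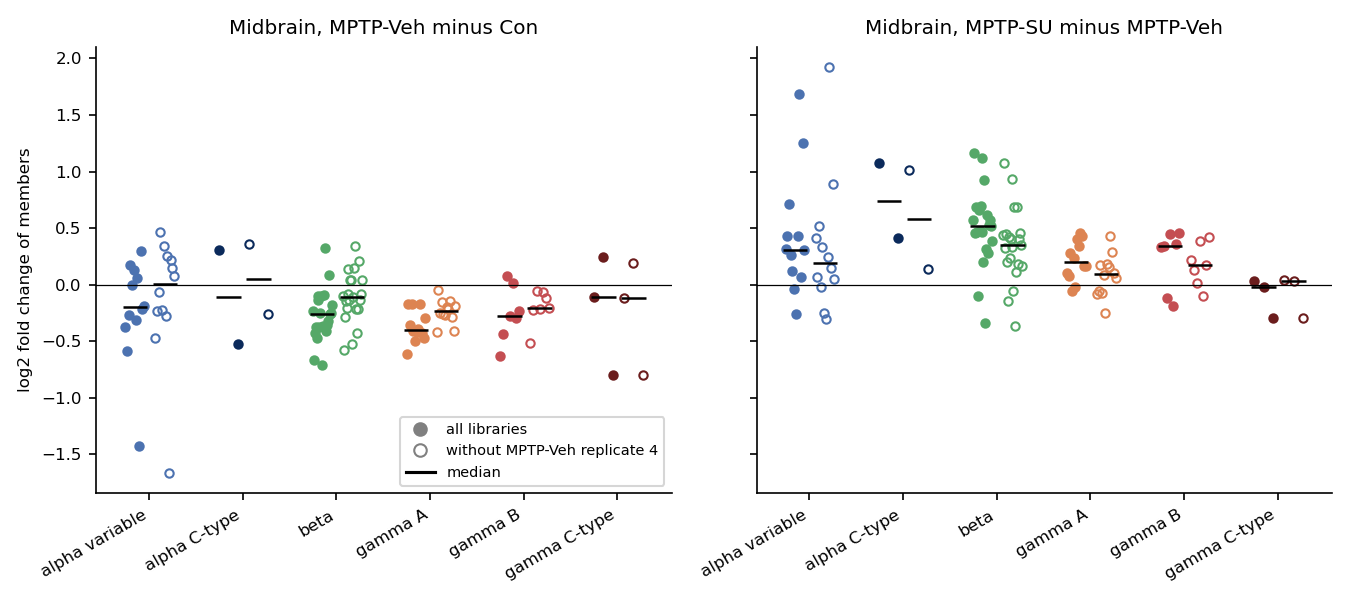
Log2 fold change of each member (y axis) by subfamily (x axis) in the midbrain, MPTP-Veh minus Con on the left and MPTP-SU minus MPTP-Veh on the right, with all libraries (filled) and without MPTP-Veh replicate 4 (open), and lines for medians. On the left all 12 gamma A members lie below 0 in both settings, and on the right the beta median moves from 0.52 to 0.35.

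Whether the antagonists opposed SUEHP was examined against MPTP-SU. These comparisons reuse the MPTP-SU libraries that were compared with MPTP-Veh. A member picked because it was high in those libraries is likelier to look lower in the antagonist groups. In the midbrain no member was called for MPTP-SU+S or for MPTP-SU+T by edgeR, DESeq2 or limma, and 0% of all genes were called by edgeR. At an unadjusted p below 0.05, 1 member was higher and 2 lower with SR141716A, where 1.65% of all genes passed, and none was higher and 3 lower with T0070907, where 1.7% passed. Members lay above 0 in 23 of 57 cases with SR141716A and in 21 of 57 with T0070907, where 51.5% and 51.9% of all genes did. With SR141716A 1 member was higher without overlap and 1 lower, where 1.12% and 1.03% of all genes were, and the smallest p in each cluster belonged to Pcdha5 (-0.89), Pcdhga6 (-0.32) and Pcdhb15 (0.28), each with an adjusted p of 1. Pcdha5 was 8.75, 7.20, 12.1 and 11.7 CPM in MPTP-SU and 3.90, 6.78, 7.36 and 3.41 CPM in MPTP-SU+S, which overlapped at 7.20 and 7.36. With T0070907 they were Pcdhb7 (-0.52), Pcdhac1 (-0.63) and Pcdhga6 (-0.26), also with an adjusted p of 1. Pcdhac1 did not overlap between MPTP-SU+T (2.76 to 3.93 CPM) and MPTP-SU (4.34 to 5.72 CPM), and neither did Pcdhb7 (3.03 to 4.53 against 5.30 to 6.42 CPM). For each the exact permutation p was 0.0286, which the missing overlap fixes. Groups did not overlap for 2 members higher and 2 lower, and for 1.97% of all genes, 1.02% higher and 0.95% lower. Pcdhb11, the member with the clearest rise under SUEHP, differed by -0.21 (SE 0.19) with SR141716A and by -0.15 (SE 0.19) with T0070907.

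In the spinal cord no member was called in any of the 4 comparisons by edgeR, DESeq2 or limma, where edgeR called 0% of all genes in 3 of them and 0.024% for MPTP-SU+T against MPTP-SU. At an unadjusted p below 0.05 there were 2 higher and 1 lower for MPTP-Veh against Con (12.8% of all genes), and 2 and 1 for MPTP-SU against MPTP-Veh (3.81%). There were 1 higher and 2 lower with SR141716A (5.49%) and 4 higher and 3 lower with T0070907 (12.1%). For MPTP-Veh against Con 32 of 57 members lay above 0, where 49.4% of all genes did. Groups did not overlap for 2 members, both higher, where 4.63% of all genes did not overlap, 2.4% higher and 2.22% lower. The smallest p in each cluster belonged to Pcdha11 (-0.62, adjusted p = 0.24), Pcdhga11 (0.18) and Pcdhb20 (0.21). Pcdha11 was 6.34, 12.3, 8.82 and 5.03 CPM in Con and 5.32, 4.93, 5.18 and 5.65 CPM in MPTP-Veh, with overlap. For MPTP-SU against MPTP-Veh they were Pcdhb10 (0.49), Pcdha11 (0.37) and Pcdhgb1 (-0.21), each with an adjusted p of 0.999. With SR141716A they were Pcdhgb7 (0.27), Pcdhb10 (-0.36) and Pcdhac1 (-0.37), each with an adjusted p of 0.899. With T0070907 they were Pcdhgb2 (0.35, adjusted p = 0.249), Pcdhb10 (-0.36) and Pcdha1 (-0.55). Pcdhgb2 was 14.5, 13.9, 13.0 and 11.8 CPM in MPTP-SU and 16.9, 14.9, 17.4 and 18.2 CPM in MPTP-SU+T, without overlap. The gamma sum there rose from 398 ± 10.6 to 426 ± 32.3 CPM in the mean, with overlap. Medians of all members lay between -0.03 and 0.05 in the 4 comparisons.

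Whether an effect differed between the tissues was tested as the difference of differences. For MPTP-Veh against Con, Pcdhgc5 and Pcdhga11 were lower in the midbrain relative to the spinal cord, 2 of 57 members, where 1.01% of all genes were lower and 3.12% passed in either direction. Pcdhgc5 differed by -1.01 (SE 0.25, edgeR adjusted p = 0.042), with a midbrain value of -0.80 and a spinal cord value of 0.19. Pcdhga11 differed by -0.55 (SE 0.15, adjusted p = 0.0487), with -0.36 (21.0, 25.8, 20.1 and 21.0 CPM in Con, 17.04, 18.9, 19.3 and 13.1 CPM in MPTP-Veh) and 0.18. Both calls were marginal. Of 16 refits that left out 1 library, Pcdhgc5 missed the threshold in 9 and Pcdhga11 in 12, including the refit without MPTP-Veh replicate 4 for Pcdhga11 (-0.44, adjusted p = 0.0876). For MPTP-SU against MPTP-Veh, Pcdhb11 differed by 1.08 (SE 0.30, adjusted p = 0.0146), with midbrain and spinal cord values of 1.16 and 0.08, where 6.11% of all genes were higher and 16.8% passed. That call held in every refit that left out 1 library. Pcdhac1 differed by 0.92 (adjusted p = 0.062), so its rise under SUEHP was not shown to differ between the tissues.

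Genes related to the clustered protocadherins were read from 4 lists, and most of their calls rested on MPTP-Veh replicate 4. For MPTP-SU against MPTP-Veh in the midbrain, 4.35% of all genes were called higher and 9.1% lower, and 1.31% and 2.09% without that library. The 12 non-clustered protocadherins, adhesion genes of the same family outside the clusters, held 2 that rose. These were Pcdh9 (0.88, edgeR adjusted p = 0.0366) and Pcdh11x (0.70, adjusted p = 0.0465), and the median of the list was 0.45. Without replicate 4 Pcdh9 was called (0.60, adjusted p = 0.0286), Pcdh11x was not (0.49), and the median was 0.27. That library was lower than the other 3 by a median of -1.12 on the log2 scale in this list, beside -0.65 in the clustered members and -0.05 in all genes.

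Of 18 factors that fold or silence the locus, such as CTCF, cohesin and DNA methyltransferases, 1 fell, the cohesin subunit Smc1a (-0.77, adjusted p = 0.00443), and it was called without replicate 4 as well (-0.63, adjusted p = 0.00175). Of 26 partners and processing enzymes, Vps35 of the retromer rose (0.73, adjusted p = 0.0282), and the gamma-secretase subunits Psenen (-0.86, adjusted p = 0.0139) and Psen2 (-1.12, adjusted p = 0.0276) fell. Without replicate 4 none of the 26 was called, since Vps35 (0.48, adjusted p = 0.00124) and Psenen (-0.45, adjusted p = 0.0015) fell short of 1.5-fold and Psen2 (-0.36, adjusted p = 0.0616) missed the adjusted p. Of 12 tested genes that lie beside the clusters none rose and 4 fell, Ik (-0.80), Zmat2 (-1.72), Ndufa2 (-1.64) and Fchsd1 (-1.13), with a median of -0.48. Without replicate 4 there were 2, Ik (-0.66) and Zmat2 (-0.91), and the median was -0.20. Of all genes 9.1% were called lower, or 2.09% without replicate 4.

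None of the 4 lists held a called gene for MPTP-Veh against Con in the midbrain, for either antagonist there, or in any spinal cord comparison. Between the tissues Pcdh8 (1.55), Pcdh19 (0.95) and Pcdh20 (1.32) were higher in the midbrain, as were the kinase Ptk2b (3.21) and Fchsd1 (0.79). Dnmt3b (-0.60) was lower, the 1 called gene among the 18 factors. Of all genes tested between the tissues 9.8% were called higher and 12.2% lower.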

How the data were processed

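Whole-tissue RNA was sequenced with a CORALL RNA-Seq V2 kit as 100-bp paired reads. The submitters' processing notes name fastp, STAR, Salmon, GATK and GRCm39, without versions. The deposited values are estimated counts per gene symbol, which the authors made with Salmon and deposited as whole numbers, 1 file per library, and they were used as given. Their paper used TMM and CPM, an adjusted p below 0.05 and a fold above 1.5. The test behind it is not named there.

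Counts were filtered with filterByExpr, scaled by TMM and tested with edgeR 4.0.16 (R 4.3.3) by quasi-likelihood, within each tissue over 5 groups, or over 40 libraries for tissue comparisons, with Benjamini-Hochberg adjustment over all genes tested. Genes were called at an adjusted p below 0.05 and a fold above 1.5, and differences of differences at the adjusted p alone. Printed CPM used TMM over 40 libraries. Levels per kb used GENCODE vM21 transcript lengths, another build than that of the counts, so no coordinates or sequences are given. DESeq2 1.42.0, limma 3.58.1, other scalings and filters, a replicate block and single-library removals were alternatives. Removal of a GC and length trend (mgcv 1.9.3) and of MPTP-Veh replicate 4 from the related lists was added after seeing the data. The fits were tested on simulated data. By rule, the members named were up to 5 called per cluster and comparison, the smallest p per cluster where none was called, the C-type members and the 2 with the highest CPM per subfamily, plus called list genes (at most 4 per list). Other members were named after their values were seen. Members and lists were chosen with earlier results of these data known. The result of a further marker list is not reported here.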

Additional observations from a re-analysis of the deposited data

Results flagged for a closer look

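Within groups of 4 libraries, 5 of 120 checks over 12 quantities (cluster sums and named members) had a highest or lowest library that stood apart by Dixon's test at the 95% level, and chance gives about 1 in 20. In the midbrain MPTP-Veh replicate 4 had an alpha sum of 57.9 CPM, where the other 3 libraries had 102 to 111 CPM, and a beta sum of 47.7 CPM, where the others had 89.4 to 96.6 CPM. MPTP-SU+S replicate 1 of the midbrain had a beta sum of 87.9 CPM, where the others had 111 to 113 CPM. MPTP-Veh replicate 1 of the spinal cord had a beta sum of 87.5 CPM, where the others had 96.5 to 97.8 CPM. Con replicate 2 of the midbrain had 25.8 CPM of Pcdhga11, where the others had 20.1 to 21.0 CPM.

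By edgeR's test of the difference itself, 3 members passed an adjusted p below 0.05 for a treatment effect that differed between the tissues. Midbrain minus spinal cord, on the log2 scale, the effect of MPTP-Veh against Con differed by -1.01 for Pcdhgc5 (adjusted p = 0.042). For Pcdhga11 it differed by -0.55 (adjusted p = 0.0487), where 3.12% of all genes passed in either direction. These calls were marginal. Of 16 single-library removals, Pcdhgc5 missed the threshold in 9 and Pcdhga11 in 12. Library size alone, no filter and the replicate block called neither member. The effect of MPTP-SU against MPTP-Veh differed by 1.08 for Pcdhb11 (adjusted p = 0.0146), where 16.8% of all genes passed in either direction. The Pcdhb11 call held in every single-library removal.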

How the results depend on the processing

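Counts of members called are given under each alternative that moved them by more than 1.5 times. The share of all genes called can move with the alternative too and is not given for each. For MPTP-Veh against Con in the midbrain (0 called), limma with sample weights called 1 and DESeq2 called 1, and refits that left out 1 library called 0 to 1, with 1 without MPTP-Veh replicate 3. For MPTP-SU against MPTP-Veh in the midbrain (2), the adjusted p alone called 4 and the 8 libraries alone called 0, and leaving out 1 library gave 2 to 6. Between the tissues (4), the adjusted p alone called 32 and removal of the GC and length trend, chosen after seeing the data, called 2, with 3 to 6 when 1 library was left out. For the tissue difference in the effect of MPTP-Veh against Con (2), library size alone called 0, no filter 0, the replicate block 0 (adjusted p = 0.0811 for Pcdhgc5 and Pcdhga11), limma 1 and DESeq2 5, with 0 to 8 when 1 library was left out. It was 8 without midbrain MPTP-Veh replicate 3 and 5 without replicate 2. It was 0 without any 1 of midbrain Con replicates 1, 2 and 4, of spinal cord Con replicates 1 and 4, or of the 4 spinal cord MPTP-Veh libraries. For that in the effect of MPTP-SU against MPTP-Veh (1), RLE scaling called 2, at least 10 counts in every library 5, DESeq2 5 and the trend removal 2, with 1 to 6 when 1 library was left out. It was 6 without midbrain MPTP-Veh replicate 1 or replicate 3. The gamma sum of MPTP-Veh against Con in the midbrain went from -0.26 to -0.34 on the log2 scale with library size alone. Of the alternatives other than single-library removals, 91 counts of members were within 1.5 times of the reported count and 15 were not. Many of the 91 compare 0 with 0, since both midbrain antagonist comparisons and every spinal cord comparison had 0 called in each alternative. For the tissue differences, 4 of 8 alternatives stayed within 1.5 times for MPTP-SU against MPTP-Veh and 3 of 8 for MPTP-Veh against Con. Of 30 cluster sums 29 moved by less than the spread between libraries. For MPTP-SU against MPTP-Veh in the midbrain Pcdhgc3 (0.03) turned to -0.0024 with limma and ranged from -0.040 to 0.088 when 1 library was left out, below 0 for MPTP-Veh replicate 1 or MPTP-SU replicate 3. Pcdhgc4 (-0.02) turned to 0.0012 with no filter, 0.020 with limma, 0.077 with the trend removed, 0.035 without MPTP-Veh replicate 4, and, leaving out 1 MPTP-SU library, 0.040 (replicate 2) or 0.018 (replicate 4), with a range of -0.072 to 0.040. The cause was not tested. Same-numbered libraries of the tissues deviated together with r from -0.151 to 0.304, above 0.1 in 2 of 20 pairs. The check compared different tissues, so it cannot tell whether same-numbered libraries came from the same animal. The replicate block called 5 between the tissues, adding Pcdhga9, and otherwise changed only the calls named above. Depth limited Pcdhb1, which had 0 to 3 counts per library.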
